A study of Homo sapiens with 12 samples.

Results

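Mitochondrial ribosomal protein genes encode the proteins of the mitochondrial ribosome (mitoribosome) and carry the symbols MRPL (named for the large subunit) or MRPS (named for the small subunit). They were chosen by symbol, an MRPL or MRPS stem followed by a number and at most a letter from A to C, and by level: at least 10 normalised counts in at least 3 of 12 libraries, whatever the group. Of 78 symbols that fit the name, 76 passed this filter, 49 of them MRPL and 27 MRPS. They are 76 of 10642 protein-coding genes tested and of 46639 symbols listed.

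All these proteins are made in the cytosol from nuclear genes and imported into mitochondria. There all but MRPS36, described below, assemble with ribosomal RNA that mitochondrial DNA encodes. The finished particle translates the few mitochondrially encoded mRNAs, whose products are membrane subunits of the respiratory chain and of ATP synthase. Many of its proteins descend from bacterial ribosomal proteins and others are found in mitochondria alone. Leukemic cells of the myeloid lineage are known for a high dependence on mitochondrial translation.

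RNA-seq was performed on MOLM-13, an acute myeloid leukemia (AML) cell line that carries the MLL-AF9 fusion, grown with GM-CSF. The study's culture methods, given for all its cell lines together, do not name GM-CSF. The 4 groups of 3 libraries were untreated cells, cells given 100 nM decitabine (DAC, a hypomethylating nucleoside analog), cells given 1 µM all-trans retinoic acid (ATRA, a ligand of retinoic acid receptors), and cells given both at these doses (DAC+ATRA). Per the labels the untreated libraries stand at 96 h and all treated libraries at 72 h, so time and treatment cannot be told apart in a comparison with untreated. The study's methods add ATRA only with the third daily dose of DAC, a shorter exposure than the labels give, and none of the 12 libraries is labelled as a vehicle control. The replicates were described as technical triplicates, so each p-value measures the spread within 1 experiment on 1 cell line.

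The libraries held 4.67 to 11.9 M recovered reads (M for mega), of which the 76 members took 0.486% to 0.697%. Markers of the myeloid line were present, with CD33 at 303 to 771, SPI1 at 335 to 467 and CEBPA at 5729 to 17452 normalised counts, although CD68 was listed at 0 throughout. Myeloid markers, CD33 and CEBPA among them, moved with the treatment. LYZ held 34274 to 46320 in untreated, 136550 to 184635 with DAC, 5282 to 9402 with ATRA and 39104 to 43517 with DAC+ATRA. In the same order MPO held 1511 to 1515, 16549 to 27376, 580.2 to 1059 and 9201 to 11105. CEBPA held 13559 to 17452, 9246 to 14022, 5729 to 6375 and 8514 to 9732, and CD33 303 to 460, 312 to 505, 497 to 584 and 630 to 771. Their part in the members' results was not tested. Markers of other blood lineages (CD3E, MS4A1, HBB) stayed at or under 2.04. A single non-coding RNA, RN7SL1 (the RNA of the signal recognition particle), took 4.84% to 12.96% of the reads. In 3 libraries its share stood apart from that of the other 2 of their group: 11.2% in untreated library 3 against 6.36% and 6.22%, 4.84% in DAC library 3 against 10.5% and 10.2%, and 7.84% in ATRA library 1 against 12.4% and 12.8%. Results are therefore also given without those 3 libraries, an alternative chosen after seeing the data. In that alternative the RN7SL1 share of untreated libraries no longer overlapped that of any treated group, so the share and the treatment cannot be told apart there.

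The filter used levels alone, so a member's level is how it came to be listed and not a result. A normalised count is the authors' read count divided by 1 size factor per library. Of the 76 members, 71 reached 10 normalised counts in all 12 libraries. Just inside the filter were MRPL10 (5 libraries), MRPL52 (7), MRPL36 (10), MRPL11 (11) and MRPL39 (11). Just outside were MRPS2, with 10 or more in 2 libraries and levels of 3.34 to 15.1, and MRPS18B, at 0 to 1.57. Reads were counted per transcript, and genes listed with more transcripts had lower levels: the median was 910 normalised counts for the 27 members with 1 transcript listed, 405 for the 27 with 2 or 3, and 59.2 for the 22 with 4 or more. Levels therefore cannot be ranked between members, and each gene is compared only with itself.

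Sequences are shown for the genes that the results turn on: MRPL33, the member with the largest change in ATRA and in DAC+ATRA, its fellow large-subunit gene MRPL51, and the small-subunit genes MRPS11 and MRPS12. The 4 lines give the 250 bases before each transcription start, 5′ to 3′ on the gene's strand, from RefSeq (GRCh38.p14). The RefSeq start lies inside the GENCODE gene span given below for MRPS11, by 255 bases, and for MRPL51, by 579 bases, so those windows lie inside that span. Capitals mark the ETS core CCGGAAG on either strand in MRPL33 and MRPL51 and the CCAAT box in MRPS12. The MRPS11 window held none of the motifs searched.
MRPL33 promoter, chr2:27771469-27771718, plus strand: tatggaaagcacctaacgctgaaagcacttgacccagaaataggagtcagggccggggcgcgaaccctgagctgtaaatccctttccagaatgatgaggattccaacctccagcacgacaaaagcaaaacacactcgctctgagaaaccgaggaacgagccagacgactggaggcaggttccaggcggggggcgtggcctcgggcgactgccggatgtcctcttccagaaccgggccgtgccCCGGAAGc
MRPL51 promoter, chr12:6493263-6493512, minus strand: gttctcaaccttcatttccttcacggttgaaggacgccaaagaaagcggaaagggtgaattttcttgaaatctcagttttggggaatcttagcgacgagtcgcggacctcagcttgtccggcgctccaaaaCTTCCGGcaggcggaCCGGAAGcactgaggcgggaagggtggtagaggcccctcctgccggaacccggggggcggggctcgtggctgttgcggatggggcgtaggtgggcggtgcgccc
MRPS11 promoter, chr15:88467458-88467707, plus strand: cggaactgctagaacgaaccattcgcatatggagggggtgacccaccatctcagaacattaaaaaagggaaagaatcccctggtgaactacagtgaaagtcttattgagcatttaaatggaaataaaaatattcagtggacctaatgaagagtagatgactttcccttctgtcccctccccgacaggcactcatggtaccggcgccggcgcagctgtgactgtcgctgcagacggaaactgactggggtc
MRPS12 promoter, chr19:38930694-38930943, plus strand: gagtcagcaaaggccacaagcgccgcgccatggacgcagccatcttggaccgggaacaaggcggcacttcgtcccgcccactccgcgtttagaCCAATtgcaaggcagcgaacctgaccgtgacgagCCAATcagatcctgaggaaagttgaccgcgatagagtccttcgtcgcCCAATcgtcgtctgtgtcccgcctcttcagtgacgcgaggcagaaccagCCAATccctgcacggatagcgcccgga

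Promoters were matched for 67 of the 76 members. The ETS core CCGGAAG, read on both strands, lay in 34.3% of the members' windows, against 17.5% of the windows of 8542 tested genes and 8.82% of all 27305 windows. Among the 16 members with a window that passed the test in any comparison, 8 held it. In MRPL33 it began 8 bases before the start, and in MRPL51 it began 119 and 104 bases before the start on opposite strands. The NRF1 core GCGCATG was found in 8.96% of members' windows (7.07% of tested genes), the E-box CACGTG in 8.96% (9.11%), the CCAAT box in 28.4% (35.7%) and the retinoid half-site AGGTCA in 11.9% (8.52%). MRPS12 held 4 CCAAT boxes, beginning 157, 123, 76 and 27 bases before its start. Matches of different motifs were counted independently, overlaps between motifs were not removed, and a match is a description of the letters and not a binding site.

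Many members lie head to head with another gene. By GENCODE release 44, for 22 of 76 (28.9%) a start of a protein-coding gene on the other strand lay within 500 bases, against 1611 of 10408 tested genes with a position (15.5%). One such pair joins 2 members, MRPS11 and MRPL46 on chromosome 15.

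Across the 4 groups the levels of the members moved little. The span between a member's highest and lowest group mean had a median of 0.49 (log2 scale) against 0.72 over all tested genes, and exceeded 1 in 5 members (MRPL52, MRPL33, MRPL10, MRPL36 and MRPL43) against 32.2% of all tested genes. The median SD between libraries of a group was 0.22, and MRPL52 and MRPL10, near the filter, had SDs of 0.66 and 0.71. ATRA was the lowest group for 42 members, DAC+ATRA for 15, untreated for 11 and DAC for 8. Untreated was the highest group for 28, DAC for 24, DAC+ATRA for 20 and ATRA for 4.

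**Figure D1:**
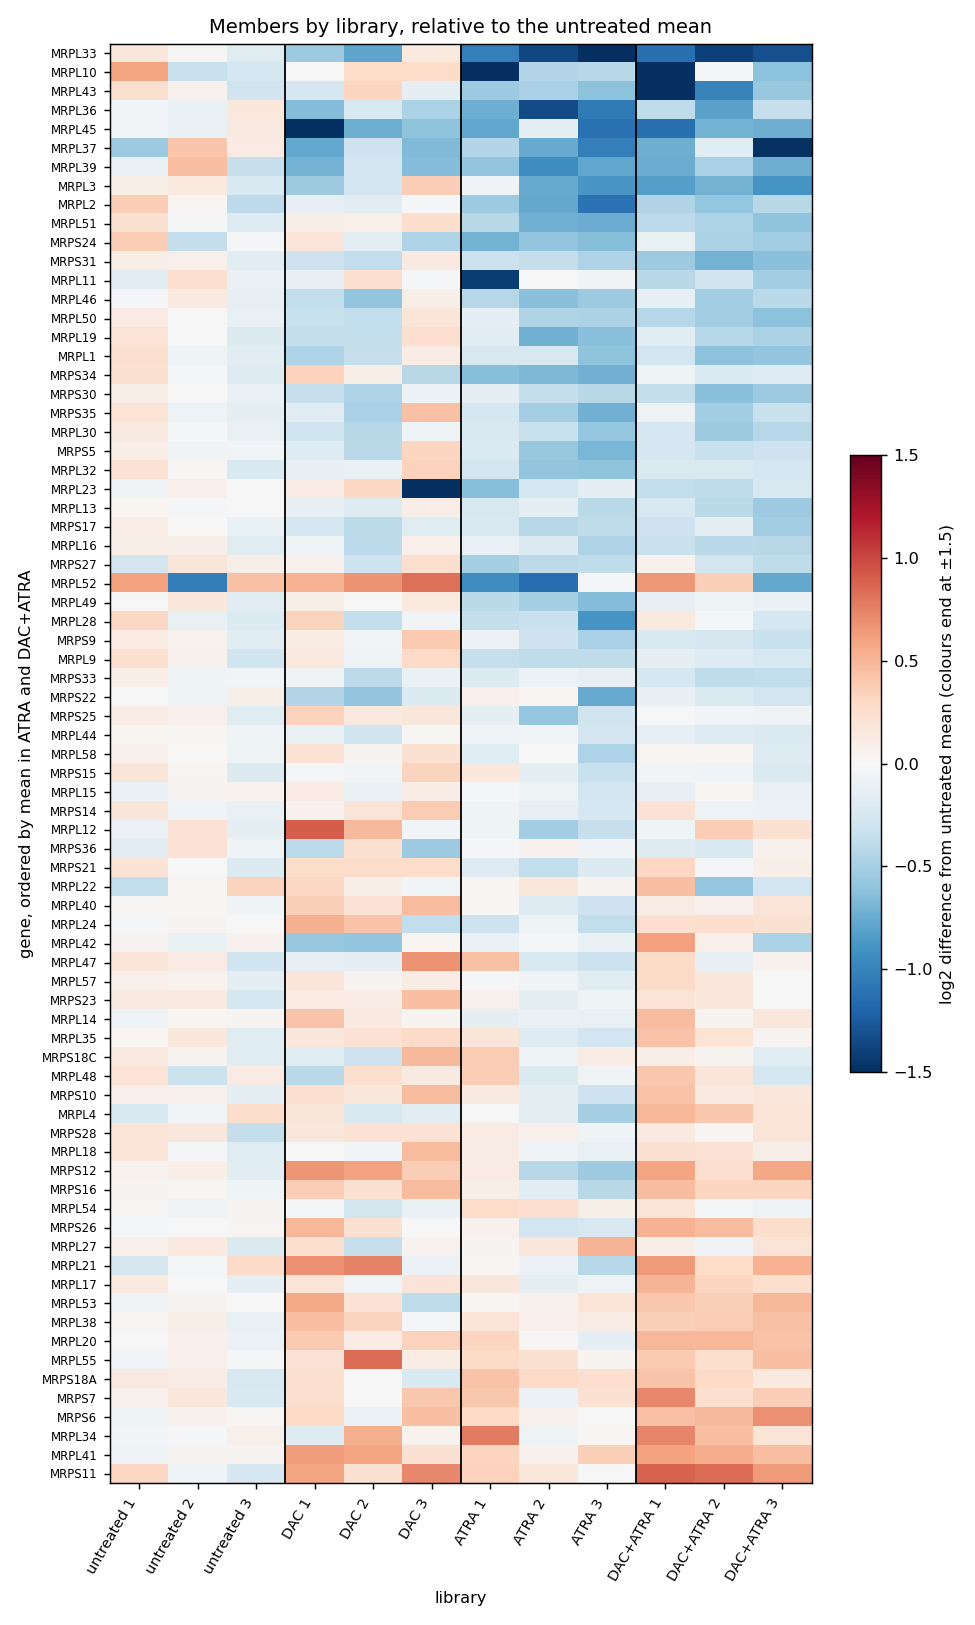
Heatmap of the 76 members (vertical axis, ordered by their mean in ATRA and DAC+ATRA) in 12 libraries (horizontal axis), with colour for the log2 difference from the untreated mean, ending at ±1.5. MRPL33 at the top is blue in all 6 libraries with ATRA, whereas MRPS11 at the bottom is red in the 3 DAC+ATRA libraries.

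The members' summed level was 48.9, 46.6 and 42.4 k normalised counts (k for kilo) in untreated libraries 1 to 3. It was 47.0, 43.2 and 52.7 k with DAC, 43.9, 39.1 and 36.2 k with ATRA, and 46.6, 42.7 and 41.5 k with DAC+ATRA. The means were 46.0 ± 3.28 (untreated), 47.6 ± 4.82 (DAC), 39.8 ± 3.86 (ATRA) and 43.6 ± 2.66 (DAC+ATRA) k (SD, n = 3), and the ranges of all groups overlapped. The 3 libraries set apart by RN7SL1 were also the extremes of their groups here: untreated library 3, with the high share, had the lowest sum of its group, and DAC library 3 and ATRA library 1, with the low shares, had the highest. The DAC+ATRA group ran the other way: its library 1 had the highest share of all 12 libraries (12.96%) and the highest sum of its group. The part of RN7SL1 in these sums was not tested. In bulk RNA, fewer cells of a kind and less RNA per cell cannot be told apart.

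**Figure D2:**
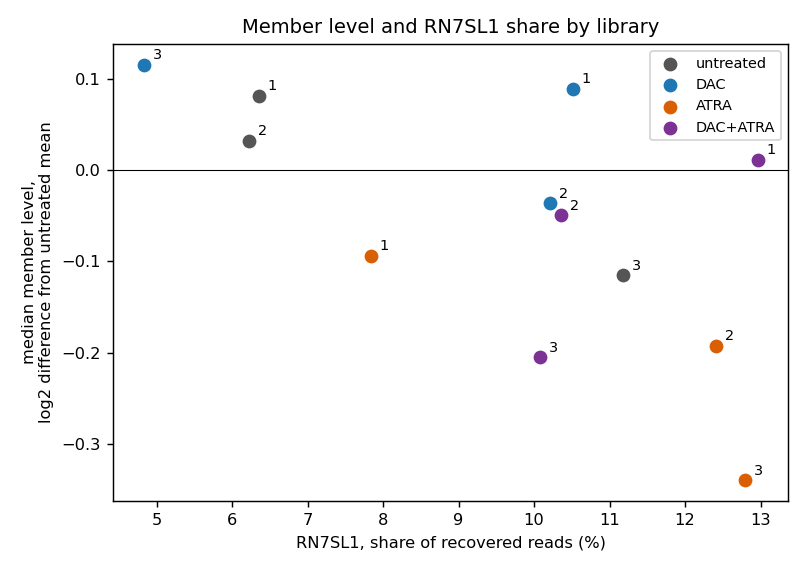
Share of reads taken by RN7SL1 in percent (horizontal axis) and the median member level as a log2 difference from the untreated mean (vertical axis), 1 point per library, coloured by group and numbered by replicate. DAC library 3, with 4.84% RN7SL1, lies highest, and ATRA library 3, with 12.8%, lies lowest. DAC+ATRA library 1, with the largest share (12.96%), lies at 0.01, the highest of its group.

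The first question was how each drug changed the members on its own. With DAC alone no member passed the test. Differences are log2 fold changes on the scale log2(normalised count + 1), tested with limma over all 10642 genes with Benjamini-Hochberg adjustment, and calls were made where the adjusted p fell under 0.01. Of all tested genes, 7.97% were called, 4.29% higher and 3.67% lower. The members' median was 0.04 (all genes: -0.00), and 70 of 76 lay within 0.5 of no change. An unadjusted p under 0.05 was found for 14 of 76 members and for 3059 of 10642 tested genes. DESeq2 called 1 member (MRPL41), edgeR with TMM factors 1 (also MRPL41) and edgeR with DESeq2's size factors 0. Of all genes, these fits called 11.4%, 8.96% and 8.79%. The libraries of both groups did not overlap for 14 members, against a background of 30.4% of all genes.

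MRPL41, a mitochondria-specific protein of the large subunit, came closest (ENSG00000182154.8, chr9:137551879-137552555, plus strand). Its levels were 479.8, 524 and 521 in untreated libraries 1 to 3, 784, 765 and 596 with DAC, 633, 532 and 649 with ATRA and 771, 743 and 692 with DAC+ATRA. Every DAC and every DAC+ATRA library lay above the 3 untreated ones, as did every ATRA library by a smaller margin. The difference for DAC was 0.48 ± 0.12 (SE, limma adjusted p = 0.0117). MRPL45, a protein near the exit of the nascent-chain tunnel, had the lowest value at -0.96 ± 0.29 (SE, limma adjusted p = 0.029), from 66.9, 64.1 and 75.3 normalised counts in untreated to 22.9, 40.8 and 44.6 with DAC. Its 3 DAC libraries lay under the 3 untreated ones, at levels where counting error is large.

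The count moved with DAC library 3. Without it, 5 members were called while the share of all genes rose to 13%: MRPL41 (0.61), MRPL12 (0.70) and MRPL38 (0.39) higher, MRPL33 (-0.67) and MRPL45 (-1.14) lower. Without the 3 libraries set apart by RN7SL1 there were 7 calls, 2 higher and 5 lower, with 15% of all genes called.

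With ATRA alone members were mostly lower. The median was -0.24 against -0.04 for all genes, 60 of 76 differences were negative, and 5 members fell and none rose, where 14.0% of all genes fell and 12.1% rose (26.0% called). Their share of 6.58% was below that background. Of all members, 59 lay within 0.5. Not called, though past 2-fold, were MRPL36 at -1.04 ± 0.35 (SE, limma adjusted p = 0.0254) and MRPL10 at -1.01 ± 0.54 (SE, limma adjusted p = 0.158). All 5 calls had libraries that did not overlap, as 32 members did in this comparison, against a background of 50.7%.

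MRPL33, a small protein of the large subunit with a bacterial counterpart, had the largest change (ENSG00000243147.8, chr2:27771717-27988087, plus strand). It held 2506, 2265 and 1972 normalised counts in untreated libraries 1 to 3 and 1532, 1291 and 2485 with DAC. With ATRA it held 1097, 868 and 793, and with DAC+ATRA 1020.5, 848 and 893. All 6 libraries with ATRA lay under all 6 without it, while the DAC group was split, with library 3 at the untreated level and libraries 1 and 2 below it. The MRPL33 change was -1.30 in ATRA and -1.28 in DAC+ATRA, 2.46-fold and 2.44-fold lower, with an SE of 0.18 (limma adjusted p = 1.15e-05 and 1.33e-05). For DAC alone the difference was -0.40 ± 0.18 (SE, limma adjusted p = 0.154). DAC+ATRA and ATRA differed by 0.01, with a 95% interval of -0.37 to 0.39.

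The MRPL33 reads came from 2 listed transcripts that differ in exon 3, which lies at chr2:27774424-27774530 and is 107 bases long. The transcript ENST00000296102.8 includes it and has 195 coding bases in 65 codons, and ENST00000379666.7 skips it and has 162 coding bases in 54 codons. The line gives the coding sequence of the former from GENCODE release 44 (GRCh38), 5′ to 3′ and without the stop codon, with exon 3 in capitals.
MRPL33 coding sequence: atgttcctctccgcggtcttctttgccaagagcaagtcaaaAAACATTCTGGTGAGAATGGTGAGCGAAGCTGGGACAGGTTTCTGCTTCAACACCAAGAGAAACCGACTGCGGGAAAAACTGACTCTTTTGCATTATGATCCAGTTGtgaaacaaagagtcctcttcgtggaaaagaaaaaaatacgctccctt

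Both transcripts were lower with ATRA. The exon 3 form held 2341, 2118 and 1851 normalised counts in untreated, 1473, 1211 and 2305 with DAC, 1036, 793 and 744 with ATRA, and 962, 789 and 824 with DAC+ATRA. The skipped form held 166, 147 and 121 in untreated, 58.5, 80.0 and 179.6 with DAC, 60.9, 75.2 and 48.5 with ATRA, and 58.8, 58.5 and 69.4 with DAC+ATRA. As a share of the reads of both forms, the skipped form was 6.41 ± 0.244% in untreated, 5.75 ± 1.75% with DAC, 6.78 ± 1.65% with ATRA and 6.81 ± 1.01% with DAC+ATRA (SD, n = 3). The groups overlapped, and single libraries ran from 3.82% in DAC library 1 (46 of 1204 reads, Clopper-Pearson 95% interval 2.81% to 5.06%) to 8.65% in ATRA library 2 (101 of 1167 reads, 7.10% to 10.4%), intervals that cover counting error only. Reads that fit both transcripts may not have been counted, and exons of BABAM2 overlap MRPL33 on the same strand.

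**Figure D3:**
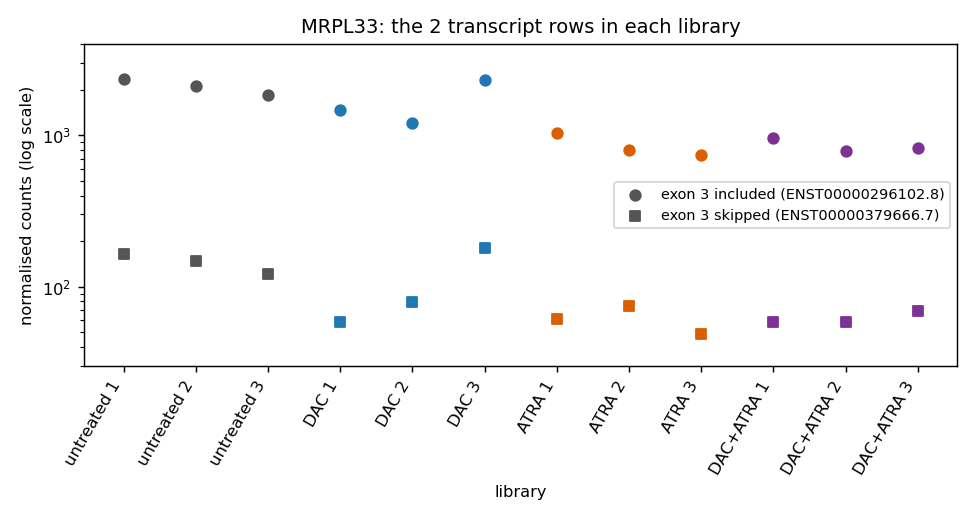
Normalised counts of the 2 MRPL33 transcripts (vertical axis, log scale) in each of the 12 libraries (horizontal axis), with circles for the form that includes exon 3 and squares for the form that skips it. Both forms lie lower in the 6 libraries with ATRA than in the 3 untreated libraries, and the form that skips exon 3 holds 3.82% to 8.65% of the reads of both.

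MRPL51, a mitochondria-specific protein of the large subunit, fell with ATRA as well (ENSG00000111639.8, chr12:6491886-6493841, minus strand). Its levels were 1173, 982 and 873 in untreated libraries 1 to 3, 1064, 1054 and 1205 with DAC, 749.9, 607 and 599 with ATRA and 761, 728 and 657 with DAC+ATRA. The 6 libraries with ATRA lay under the 6 without it. The change was -0.63 ± 0.13 (SE, limma adjusted p = 0.000586) for ATRA alone and -0.49 ± 0.13 (SE, limma adjusted p = 0.00447) for the combination. Its start lies head to head with that of NCAPD2, a condensin subunit, whose exons overlap it on the opposite strand and which itself changed by -0.90 in ATRA (limma adjusted p = 5.89e-05) and by -0.52 in the combination (limma adjusted p = 0.00715).

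MRPL2, a protein of the conserved core near the peptidyl transferase center, fell from 127, 99.9 and 74.6 normalised counts in untreated to 67.2, 57.3 and 45.1 with ATRA. It held 90.3, 87.8 and 95.8 with DAC and 71.4, 65.3 and 73.5 with DAC+ATRA, and the combination overlapped ATRA. The change with ATRA was -0.80 ± 0.21 (SE, limma adjusted p = 0.00579). Its 3 transcripts with reads differed: the log2 ratio of group means was -1.30 for ENST00000388752.8 and -0.37 for ENST00000487429.1. For ENST00000468957.1 it was 0.84, from means of 4.20 in untreated and 8.33 with ATRA. Exons of ENSG00000288564 overlap MRPL2 on the same strand and those of KLC4 on the opposite strand. MRPS34, a mitochondria-specific protein of the small subunit, held 168, 139.6 and 125 in untreated libraries 1 to 3, 182, 152 and 107 with DAC, 91.4, 89.3 and 86.1 with ATRA and 136, 124 and 125 with DAC+ATRA. Its 3 ATRA libraries were the lowest of all 12, and the change was -0.68 ± 0.19 (SE, limma adjusted p = 0.00771). The fifth call, MRPL49, was outside the rule for named members and is given because the count is small: it fell from 810.3, 900.3 and 724 to 611, 574 and 514 normalised counts, a change of -0.52 ± 0.11 (SE, limma adjusted p = 0.00102).

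The number of ATRA calls moved with single libraries. It was 3 without untreated library 1 (20.8% of all genes called in that fit), 2 without untreated library 2 (20%), 8 without ATRA library 1 (24.8%), 3 without ATRA library 2 (21.3%) or 3 (20.5%), and 14 without DAC library 3 (30.7%), which changes only the shared estimate of the spread. Without untreated library 1 the calls of MRPL2 and MRPS34 were lost (limma adjusted p = 0.0497 and 0.0508), as they were without untreated library 2 or ATRA library 2 or 3. MRPS34 was also lost without ATRA library 1 or any DAC+ATRA library, and MRPL49 without untreated library 2 (limma adjusted p = 0.0127). Without the 3 libraries set apart by RN7SL1, 21 members were called, all lower, with 30.3% of all genes. MRPL33 and MRPL51 remained called in each of the 25 alternative fits.

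**Figure D4:**
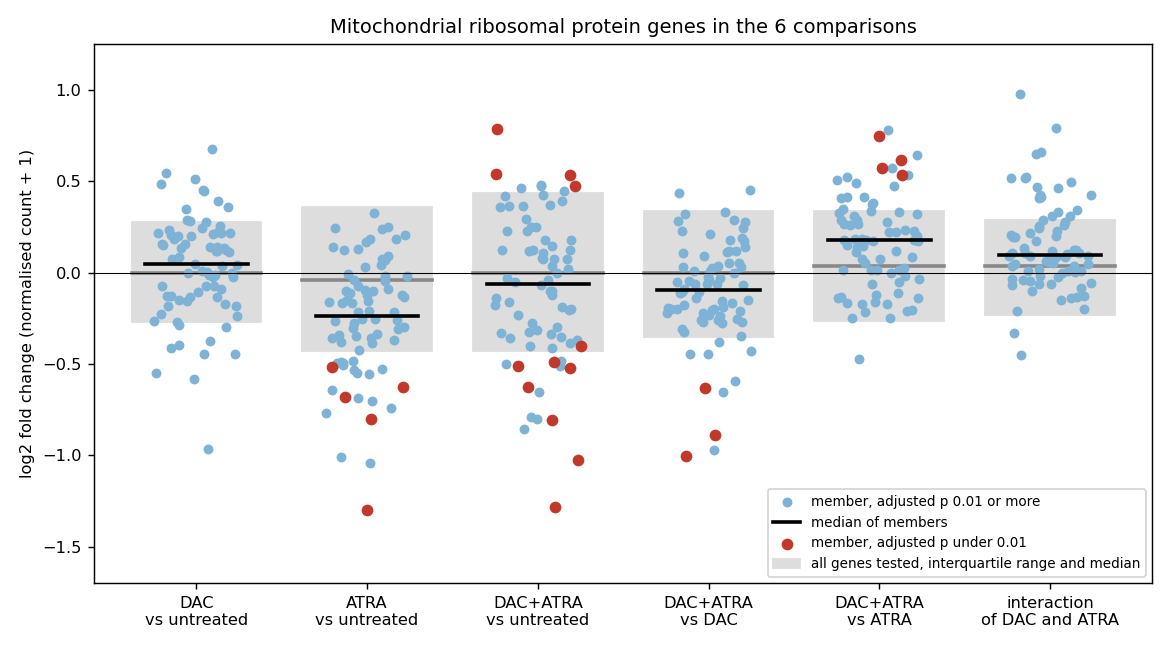
Log2 fold change of each of the 76 members (vertical axis) in the 6 comparisons (horizontal axis), with called members in red, the members' median as a black line, and the interquartile range and median of all 10642 tested genes in grey. The black line lies under the grey one for ATRA (-0.24 against -0.04) and above it for DAC+ATRA against ATRA (0.18 against 0.03).

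With DAC+ATRA, members moved both ways against untreated. Of 76, 4 rose and 8 fell, 15.8% against a background of 28.9% (14.5% higher, 14.4% lower). The median was -0.06 (all genes: -0.00), and 62 members lay within 0.5. The libraries did not overlap for 41 members, against a background of 55.8%.

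Among the 8 that fell were MRPL33 and MRPL51, given above. MRPL43, a mitochondria-specific protein of the large subunit, held 91.8, 81.2 and 62.7 in untreated libraries 1 to 3, 64.9, 97.2 and 70.8 with DAC, 52.9, 55.1 and 50.2 with ATRA and 26.6, 38.3 and 52.1 with DAC+ATRA. DAC+ATRA libraries 1 and 2 were the lowest of all 12, and library 3 lay within the range of the ATRA libraries. The change was -1.03 ± 0.25 (SE, limma adjusted p = 0.00293). With its highest transcript alone it was -1.35 (limma adjusted p = 0.01002), and the call was also lost without untreated library 1 or 2 or DAC+ATRA library 1 (limma adjusted p = 0.0205, 0.0145 and 0.0225). Exons of SEMA4G and TWNK overlap MRPL43 on the opposite strand.

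MRPL3, a core protein of the large subunit in which variants cause mitochondrial disease, held 533, 556 and 430.3 in untreated libraries 1 to 3, 347, 414 and 649 with DAC, 487, 298 and 275 with ATRA and 284, 308 and 272 with DAC+ATRA. The DAC+ATRA libraries were close to each other and under every untreated library, while DAC and ATRA each had a library at or above the untreated range's lower end and others below it. The change was -0.81 ± 0.21 (SE, limma adjusted p = 0.00475). MRPS31, a mitochondria-specific protein of the small subunit (ENSG00000102738.8, chr13:40729128-40771190, minus strand), held 928, 917 and 781 in untreated libraries 1 to 3, 706, 676 and 955 with DAC, 699.7, 679 and 633 with ATRA and 596, 534 and 565 with DAC+ATRA. The DAC+ATRA libraries were the 3 lowest of all 12, and the change was -0.63 ± 0.13 (SE, limma adjusted p = 0.000635).

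MRPS30 is named for the small subunit but sits in the large one. Its levels were 1244, 1169.9 and 1091 in untreated libraries 1 to 3, 915, 847 and 1098 with DAC, 1064, 913 and 874 with ATRA and 907, 758 and 797 with DAC+ATRA. Its DAC+ATRA libraries lay under the untreated ones and its DAC and ATRA libraries in between or overlapping, and the change was -0.51 ± 0.12 (SE, limma adjusted p = 0.00213). The remaining 2 that fell were outside the rule for named members: MRPL50 changed by -0.52 ± 0.14 (SE, limma adjusted p = 0.00536) and MRPL13 by -0.40 ± 0.11 (SE, limma adjusted p = 0.00612). MTBP, whose exons overlap MRPL13 on the opposite strand, changed by -0.80 (limma adjusted p = 7.58e-05).

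The 4 that rose were MRPS11, MRPS6, MRPL41 and MRPL20. MRPS11, a protein of the small subunit's platform with a bacterial counterpart, had the largest rise (ENSG00000181991.16, chr15:88467453-88480776, plus strand). Its levels were 317, 244 and 213 in untreated libraries 1 to 3, 384, 298 and 418 with DAC, 323, 286 and 253 with ATRA and 469, 455 and 397 with DAC+ATRA. The DAC+ATRA libraries exceeded every untreated and ATRA library, and DAC library 3 overlapped them. The change was 0.79 ± 0.16 (SE, limma adjusted p = 0.000648), 1.73-fold. For DAC alone it was 0.51 ± 0.16 (SE, limma adjusted p = 0.0366) and for ATRA alone 0.17 ± 0.16 (SE, limma adjusted p = 0.452). Its head-to-head neighbor MRPL46 did not pass the test. MRPL46 held 176, 195 and 162 in untreated libraries 1 to 3 and 137, 118 and 188 with DAC. With ATRA it held 132, 115 and 121, and with DAC+ATRA 162, 123 and 134. The difference was -0.35 ± 0.18 (SE, limma adjusted p = 0.13) for DAC+ATRA and -0.53 for ATRA (limma adjusted p = 0.0259). For ATRA, MRPL46 was called with the compared groups only (limma adjusted p = 0.00997), without DAC library 3 (0.00801) and without the 3 libraries set apart by RN7SL1 (0.00772). Those fits called 27.9%, 30.7% and 30.3% of all genes.

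MRPS6, also in the platform region of the small subunit, held 413, 455 and 442 in untreated libraries 1 to 3, 536, 409 and 595 with DAC, 539, 455 and 436 with ATRA and 594, 610.1 and 702 with DAC+ATRA. Its DAC+ATRA libraries reached 2 values above all others, with library 1 inside the DAC range, and the change was 0.54 ± 0.14 (SE, limma adjusted p = 0.00428). SLC5A3 overlaps MRPS6 on the same strand. MRPL41, with its levels given above, rose by 0.53 ± 0.12 (SE, limma adjusted p = 0.00191) in DAC+ATRA. MRPL20, a protein that binds ribosomal RNA in the large subunit, held 520.3, 544 and 486 in untreated libraries 1 to 3, 677, 558 and 659 with DAC, 644, 525 and 472 with ATRA and 729, 728 and 697 with DAC+ATRA. Its 3 DAC+ATRA libraries were the highest of the 12, and the change was 0.48 ± 0.12 (SE, limma adjusted p = 0.00475). Exons of RN7SL657P overlap MRPL20 on the same strand and those of MRPL20-AS1 on the opposite strand. The part of these overlaps in its level was not tested.

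**Figure D5:**
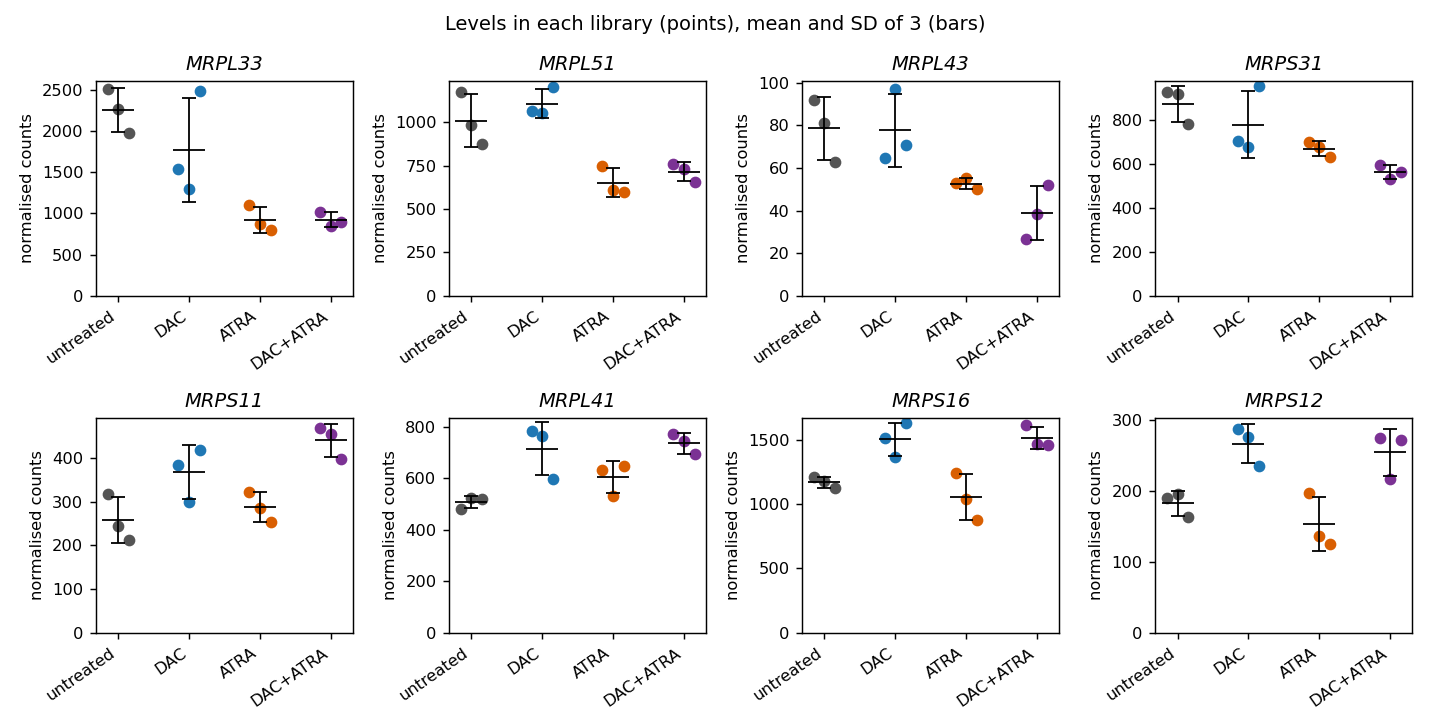
Normalised counts of 8 members in each library (points, vertical axes starting at 0) with the mean and SD of 3 libraries (bars) in the 4 groups (horizontal axes). MRPL33 and MRPL51 are low in both groups with ATRA, MRPS31 and MRPL43 are lowest with DAC+ATRA, and MRPS11, MRPL41, MRPS16 and MRPS12 have their highest means with DAC or DAC+ATRA.

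Here too the count moved with single libraries: 3 without untreated library 1 (22.2% of all genes called), 4 without untreated library 2 (22.3%), 7 without DAC+ATRA library 1 (23.4%), 5 without library 2 or 3 of that group (22.5% each), and 19 without DAC library 3 (34.2%). The 9 calls other than MRPL33, MRPS31 and MRPS11 were lost without untreated library 1, at limma adjusted p-values of 0.0122 to 0.0397. Without the 3 libraries set apart by RN7SL1 it was 22 (8 higher, 14 lower; 33.8% of all genes called), and MRPL33, MRPS31 and MRPS11 remained called in each of the 25 alternative fits.

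The single drugs were then compared with their combination. These comparisons share the DAC+ATRA libraries with those above, so their values are given side by side and not as independent support. Adding ATRA to DAC lowered 3 members and raised none, where 9.74% of all genes fell and 9.04% rose (18.8% called). The median was -0.10 (all genes: -0.00), and the libraries did not overlap for 20 members (background 39.6%). The 3 were large-subunit genes: MRPL43 at 2.01-fold lower (limma adjusted p = 0.00498), MRPL33 at -0.89 ± 0.18 (SE, limma adjusted p = 0.000926) and MRPL51 at -0.63 ± 0.13 (SE, limma adjusted p = 0.000812). DAC library 3, with 2485 normalised counts of MRPL33, was near the untreated level, and without the 3 libraries set apart by RN7SL1 the MRPL33 difference was -0.61 (limma adjusted p = 7.51e-05). MRPL43 lost the call without DAC library 2 (limma adjusted p = 0.0323) or DAC+ATRA library 1 (0.0356) or 2 (0.0162), and with its highest transcript alone (0.242).

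Adding DAC to ATRA raised 4 members and lowered none, where 6.47% of all genes rose and 5.46% fell (11.9% called). The median was 0.18 against 0.03 for all genes, and 56 of 76 differences were positive. The libraries did not overlap for 29 members (background 39.9%). The 4 were MRPS genes (4 of 27 by name, with 0 of 49 MRPL genes), although the medians of both names were alike at 0.18. The difference between these counts was not tested. MRPL49 was called here by DESeq2, with total-count scaling, with the filter at 50 normalised counts and with the compared groups only.

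MRPS12, which lies at the decoding center (ENSG00000128626.12, chr19:38930944-38933168, plus strand), held 189, 195 and 162 in untreated libraries 1 to 3, 288, 276 and 235 with DAC, 197, 136 and 125 with ATRA and 274, 216 and 272 with DAC+ATRA. Every library with DAC lay above every library without it, and ATRA libraries 2 and 3 were the lowest. DAC+ATRA exceeded ATRA by 0.75 ± 0.17 (SE, limma adjusted p = 0.00393). MRPS16, a small-subunit protein with a bacterial counterpart and a known disease gene, held 1211, 1186 and 1125 in untreated libraries 1 to 3, 1520.2, 1372 and 1633 with DAC, 1246, 1046 and 881 with ATRA and 1619.6, 1470.1 and 1463 with DAC+ATRA. All DAC and DAC+ATRA libraries exceeded all untreated and ATRA libraries, and DAC+ATRA exceeded ATRA by 0.53 ± 0.12 (SE, limma adjusted p = 0.00312).

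MRPS26, a mitochondria-specific protein of the small subunit, held 642, 645 and 664 in untreated libraries 1 to 3, 921, 765 and 645 with DAC, 680.0, 535 and 550.1 with ATRA and 938, 898 and 781 with DAC+ATRA. Its DAC library 3 was at the untreated level, whereas the DAC+ATRA libraries lay above the ATRA ones by 0.57 ± 0.13 (SE, limma adjusted p = 0.00429). MRPS11 was the fourth, at 0.62 ± 0.16 (SE, limma adjusted p = 0.00981), a value close to the threshold that was lost in 12 of the 25 alternative fits.

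No member of this comparison was called without ATRA library 2 (7.7% of all genes called), ATRA library 3 (7.99%) or DAC+ATRA library 1 (8.47%), and 1 was called without DAC+ATRA library 2 (7.7%) or 3 (8.17%). Without the 3 libraries set apart by RN7SL1, 15 were called, all higher and both MRPL and MRPS genes among them, with 18.8% of all genes called.

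The interaction compares DAC+ATRA with both single changes added up on the log2 scale. It too includes the untreated libraries, labelled 96 h, so time and treatment cannot be told apart in it. No member was called by limma, against a background of 1.6% of all genes. An unadjusted p under 0.05 was found for 2 members (MRPL4 and MRPL49) and 1570 of all tested genes. DESeq2 called 0 members and 3.14% of all genes. With either set of factors edgeR called 0 members, and of all genes 1.76% with DESeq2's size factors and 1.84% with TMM factors. The median was 0.10 (all genes: 0.03), with 56 positive and 20 negative. The precision was limited: for MRPL33 the interaction was 0.41 with a 95% interval of -0.13 to 0.94, and for MRPS11 it was 0.10 with an interval of -0.37 to 0.58. Without the 3 libraries set apart by RN7SL1, 3 members were called (MRPL19 at 0.78, MRPL33 at 0.91 and MRPS5 at 0.65), with 4.74% of all genes called.

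Landmark subunits that passed no test are given by role. The stalk that recruits translation factors is built on MRPL10 and MRPL11 and carries MRPL12. MRPL12, which has also been described as a partner of the mitochondrial RNA polymerase, held 165, 205 and 160.0 in untreated libraries 1 to 3, 331, 246 and 169.8 with DAC, 168, 122 and 138 with ATRA and 168, 226 and 206 with DAC+ATRA. DAC library 1 was the highest and DAC library 3 lay among the untreated ones, and the difference was 0.45 ± 0.21 (SE, limma adjusted p = 0.155) for DAC. MRPL10 held 17.9, 8.93 and 9.41 in untreated libraries 1 to 3, 11.4, 14.1 and 14.2 with DAC, 1.79, 8.19 and 8.36 with ATRA and 2.8, 11.3 and 7.15 with DAC+ATRA. Its lowest values, in ATRA library 1 and DAC+ATRA library 1, rest on few reads, and its difference of -1.01 ± 0.54 (SE, limma adjusted p = 0.158) for ATRA carried a wide error. MRPL11 held 18.7, 25.2 and 19.4 in untreated libraries 1 to 3, 19.1, 25.1 and 20.7 with DAC, 7.17, 20.8 and 20.1 with ATRA and 15.4, 16.9 and 14.3 with DAC+ATRA. ATRA library 1 was the lowest and the DAC+ATRA libraries lay under the untreated ones, with -0.50 ± 0.37 (SE, limma adjusted p = 0.325) for ATRA.

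Among proteins of the large subunit with other activities, MRPL58 is a peptidyl-tRNA hydrolase that became part of the particle. It held 707, 678 and 641 in untreated libraries 1 to 3, 782, 692 and 789 with DAC, 597, 672 and 487 with ATRA and 687, 691 and 592 with DAC+ATRA, and each treated group overlapped untreated. MRPL44, which has a ribonuclease III fold and in which variants cause cardiomyopathy, held 1394, 1374 and 1315 in untreated libraries 1 to 3, 1262, 1109 and 1381 with DAC, 1313, 1320.1 and 1123 with ATRA and 1254, 1188 and 1174 with DAC+ATRA. Its largest difference against untreated was -0.18 ± 0.11 (SE, limma adjusted p = 0.202) for DAC+ATRA.

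The MRPS18 genes are related to each other and their proteins take different places in the particle. MRPS18A, whose protein sits in the large subunit, held 594, 587 and 459 in untreated libraries 1 to 3, 642, 547 and 465 with DAC, 733, 665 and 647 with ATRA and 731, 666 and 602 with DAC+ATRA. ATRA libraries lay above all untreated ones, at 0.33 ± 0.14 (SE, limma adjusted p = 0.0694), the highest value of any member in that comparison and not past the threshold. MRPS18C held 658, 616 and 536 in untreated libraries 1 to 3, 532, 486 and 839 with DAC, 782, 570.0 and 649 with ATRA and 643, 620.2 and 540.1 with DAC+ATRA, with wide overlap. MRPS18B, outside the filter, was at 0.778, 0 and 0.627 in untreated libraries 1 to 3, 1.27, 1.57 and 0 with DAC, 0, 0.744 and 0 with ATRA and 0, 0 and 1.02 with DAC+ATRA. For MRPS18B, 13 transcripts were listed and 1 matched the annotation, so its low level cannot be read as low expression.

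MRPS22, a mitochondria-specific small-subunit protein and disease gene, held 63.8, 60.9 and 68.4 in untreated libraries 1 to 3, 47.1, 42.3 and 55.5 with DAC, 68.1, 65.5 and 37.6 with ATRA and 58.8, 55.2 and 53.1 with DAC+ATRA. Its DAC libraries were under the untreated ones, at -0.41 ± 0.24 (SE, limma adjusted p = 0.265). MRPS36 is now known as a subunit of the 2-oxoglutarate dehydrogenase complex. It held 28.8, 37.3 and 30.7 in untreated libraries 1 to 3, 24.2, 37.6 and 21.8 with DAC, 31.4, 33.5 and 30.9 with ATRA and 28.0, 27.0 and 33.7 with DAC+ATRA, and its differences against untreated were -0.24, -0.01 and -0.12 for DAC, ATRA and DAC+ATRA, with an SE of 0.27.

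Over all 6 comparisons, 18 members were called in at least 1 and 58 in none. Besides the overlaps named above, exons of genes on the opposite strand overlap MRPL3, MRPS11, MRPS16, MRPS34 and MRPL49. By origin, 44 members were listed with bacterial counterparts and 31 as mitochondria-specific, MRPS36 being counted in neither. MRPS18A was counted among the 31, although the related MRPS18C was among the 44. With ATRA the medians of these lists were -0.25 and -0.22, with 2 and 3 calls, all lower. With DAC+ATRA they were -0.03 and -0.10, with 3 higher and 3 lower among the former and 1 higher and 5 lower among the latter. As shares these calls were 4.55% and 9.68% with ATRA (26.0% of all genes) and 13.6% and 19.4% with DAC+ATRA (28.9%). By name, MRPL genes had medians of -0.26 with ATRA and -0.07 with DAC+ATRA, and MRPS genes -0.16 and -0.03. The 27 members with a single transcript, for which counting cannot shift between transcripts, had medians of 0.11 with DAC, -0.15 with ATRA and -0.04 with DAC+ATRA. Their calls were 0, 0 and 6 (22.2%), where 7.97%, 26.0% and 28.9% of all genes were called.

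Other genes of mitochondrial translation were taken from lists of subunits with other names, translation factors, assembly factors and mitochondrial mRNAs. Of 5 subunits outside the MRPL and MRPS names, GADD45GIP1 alone was called: it fell with ATRA (-0.69, limma adjusted p = 0.000180) and exceeded that level by 0.50 when DAC was added (limma adjusted p = 0.00660), with group means of 997.8 ± 94.6 in untreated, 1144 ± 148 with DAC, 618 ± 82.1 with ATRA and 872 ± 59.5 with DAC+ATRA (SD, n = 3). Of 15 translation factors tested, HEMK1, which methylates release factors, fell in both groups given ATRA, with changes of -1.09 for ATRA alone (limma adjusted p = 0.000841) and -1.37 for the combination (limma adjusted p = 8.28e-05). No other factor was called in any of the 6 comparisons. As a share, GADD45GIP1 was 20% of its list, against 26.0% of all genes with ATRA and 11.9% for DAC+ATRA against ATRA. HEMK1 was 6.67% of its list, against 26.0% of all genes with ATRA and 28.9% with DAC+ATRA.

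Of 26 assembly and rRNA-processing genes tested, 6 rose with DAC+ATRA and none fell (23.1% against the background of 28.9%): C1QBP, DDX28, DHX30, MTERF4, MTG1 and MTG2. C1QBP, a matrix protein that binds RNA, had means of 688 ± 101 in untreated, 1025 ± 371 with DAC, 669 ± 62.0 with ATRA and 1261 ± 191 with DAC+ATRA, and exceeded untreated by 0.87 with DAC+ATRA (limma adjusted p = 0.00227). DDX28, a helicase of large-subunit assembly, rose with ATRA (0.46, limma adjusted p = 0.00328), while GRSF1 (-0.74, limma adjusted p = 0.00164) and MALSU1 (-0.60, limma adjusted p = 0.000782) fell. The calls with ATRA were 11.5% of the 26, against 26.0% of all genes. None of the 26 was called with DAC alone, against 7.97% of all genes.

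Among the 13 mitochondrially encoded mRNAs, which the mitoribosome translates, MT-CYB rose with DAC (0.75, limma adjusted p = 0.00559) and no other was called in any comparison. That is 7.69% of the list, near the 7.97% of all genes called with DAC. Their medians were 0.28 with DAC, -0.13 with ATRA and 0.19 with DAC+ATRA. The mitochondrial ribosomal RNAs ranged from 366 to 1521 (MT-RNR1) and from 4901 to 20585 (MT-RNR2) normalised counts in libraries depleted of ribosomal RNA, so they were not compared. Of 83 cytosolic ribosomal protein genes tested, 14 fell and 1 rose with DAC, 15 fell and none rose with ATRA, and 30 fell and 1 rose with DAC+ATRA, shares of 18.1%, 18.1% and 37.3% against 7.97%, 26.0% and 28.9% of all genes. Their medians were -0.26, -0.29 and -0.36, where the mitochondrial members had 0.04, -0.24 and -0.06, and the difference between both sets was not tested.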

How the data were processed

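RNA-seq libraries of MOLM-13 (12 in all, 3 in each of 4 groups by label) were analysed; columns headed CTRL were read as untreated. The authors depleted rRNA, prepared strand-specific libraries, aligned to hg38 with STAR, counted with htseq-count and tested with DESeq2. Versions, the annotation release and the strand setting are not given in the sources used here. The deposited values are a signal: the authors divided read counts per transcript by 1 size factor per library. In each library 100% of values were whole multiples of 1 step (tolerance 0.01), so reads could be recovered. No sample column was left out.

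Of 100502 transcript entries, 88.9% matched GENCODE release 44 (GRCh38). They were summed per symbol. The 10642 protein-coding genes that reached 10 normalised counts in 3 or more libraries entered limma 3.58.1 in R 4.3.3 (lmFit, trended eBayes) as log2(normalised count + 1), which understates changes of low genes. A single fit held all 12 libraries, with 1 coefficient per group. P-values were two-sided and Benjamini-Hochberg adjusted, and the threshold was 0.01. The script was tested on simulated data. Alternatives used DESeq2 1.42.0 and edgeR 4.0.16 on recovered reads, other scalings (total count, TMM), pseudocounts (0.1, 5), filters, all symbols, the highest transcript, the compared groups only, a replicate block and leaving out each library, 25 fits in all, plus a threshold of 0.05.

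Members named with values were the called ones with the largest changes (at most 4 per direction and comparison) and landmark subunits by role; MRPL49, MRPL50, MRPL13, MRPL45, MRPL46 and members named only for calls in an alternative or the interaction were chosen after their values were seen. The members, lists and this rule were chosen with earlier results of these data known. Counts limit precision: 4.67 to 11.9 M reads were recovered per library from the listed values, which need not be the sequencing depth. Some listed marker genes are not reported here.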

Additional observations from a re-analysis of the deposited data

How the results depend on the processing

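No call turned in direction under any alternative, and 7 of the 24 calls held in all 25 alternative fits: MRPL33 in 3 comparisons, MRPL51 with ATRA and for DAC+ATRA against DAC, and MRPS31 and MRPS11 with DAC+ATRA. The other 17 were lost in at least 1. For DAC, where none was called, DESeq2, edgeR with TMM factors and a filter at 50 normalised counts each gave 1. Of all genes, they called 11.4%, 8.96% and 10.8%. A threshold of 0.05 gave 5 members and 1638 of 10642 genes. The fit without the 3 libraries set apart by RN7SL1 (chosen after seeing the data) gave 7 members and 15% of all genes. For ATRA (5 calls) the counts were 8 with total-count scaling (26.3% of all genes), 16 at 0.05 (3876 of 10642 genes) and 21 without the 3 libraries (30.3%). For DAC+ATRA against untreated (12) they were 23 with the compared groups only (37.2% of all genes), 21 at 0.05 (4268 genes) and 22 without the 3 libraries (33.8%). For DAC+ATRA against DAC (3) DESeq2 gave 6 (20.7% of all genes) and 0.05 gave 7 (3055 genes). Against ATRA (4) 0.05 gave 11 (2244 genes) and the fit without the 3 libraries 15 (18.8%). For the interaction the fit without the 3 libraries gave 3 calls (4.74% of all genes) and a median of 0.28 in place of 0.10. The causes were not tested.

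Leaving out 1 library at a time gave 0 to 5 calls for DAC, 2 to 14 for ATRA, 3 to 19 for DAC+ATRA, 2 to 4 for DAC+ATRA against DAC, 0 to 6 against ATRA and 0 for the interaction, with medians of -0.01 to 0.13, -0.28 to -0.15, -0.11 to -0.01, -0.15 to -0.06, 0.11 to 0.24 and 0.05 to 0.17. Of all genes, these fits called 4.78% to 13% for DAC, 20% to 30.7% for ATRA and 22.2% to 34.2% for DAC+ATRA. They called 13.7% to 19.2% for DAC+ATRA against DAC, 7.7% to 16.7% against ATRA and 0.996% to 2.46% for the interaction. Under the scaling alternatives the median of all genes moved by at most 0.054.

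Same-numbered libraries did not deviate together (correlations of -0.26 to 0.11, and 1 of 12 libraries correlated best with its own number), so no pairing by number was visible. Whether same-numbered libraries were handled together cannot be told from these values. With the replicate number as a block the counts were 0, 5, 11, 3, 4 and 0, and MRPL13 was lost (limma adjusted p = 0.0116). That fit called 6.97%, 24.2%, 26.6%, 17.2%, 10.7% and 1.32% of all genes in the same order.

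Low counts limit most the precision of the members near the filter, such as MRPL10 at 1.79 to 17.9 normalised counts.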
